A study of Homo sapiens with 8 samples.

Results

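Most human genes give rise to several mature transcripts (isoforms), which differ in the exons they keep, in where they start or in where they end. The data described here are the isoform shares of BEAS-2B cells exposed to formaldehyde or to clean air. The share of a transcript is its expected read count as a percentage of the summed expected count of all transcripts of its gene in the same library, so that it states which form of a gene was used and not how much of the gene was expressed. Genes were taken with a summed expected count of 200 or more in every one of the 8 libraries, and transcripts with a share of 10% or more in at least 2 libraries. These conditions left 18563 of the 206601 transcripts in the tables, in 8514 of 58735 genes. Of these, 473 were the only transcript of their gene with a count and stood at 100% throughout, and the other 18090, in 8041 genes, were tested.

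BEAS-2B is an established, immortalized line of human bronchial epithelial cells. Cells were grown under medium on culture inserts, and the medium on their upper face was removed 2 h before exposure. They were then exposed at the air–liquid interface, where the upper face meets gas. The gas was air with formaldehyde at 1 ppm (Formaldehyde Air, FA) or Clean Air (CA), given for 2 h. Both exposures were followed by 6 h of recovery. Total RNA without rRNA was then sequenced either as it was (Input, IN) or after immunoprecipitation (IP) with an antibody against 8-oxo-7,8-dihydroguanosine (8-oxoG), an oxidized form of guanosine. Each of the 4 groups, CA Input, FA Input, CA IP and FA IP, holds 2 libraries, named here replicates 1 and 2. Because the Input and the IP fraction were drawn from the same RNA pools, the 4 FA and 4 CA libraries stand for 2 RNA pools of each treatment, and p-values treat the fractions as separate measurements. Expected counts per library summed to between 26.2 M and 45.1 M in Input and between 16.9 M and 23.7 M in IP (M for mega). Summed TPM of 7 epithelial markers (KRT8, KRT18, KRT7, KRT5, KRT17, EPCAM and CDH1) was between 1130 and 3428 over the libraries, whereas the endothelial markers PECAM1, VWF and CDH5 together stayed between 0.0364 and 0.366 TPM. Of the immune markers, PTPRC and CD3E reached at most 2 counts, and CD68 gave between 1.47 and 3.84 TPM. VIM, also expressed by cultured epithelial lines, gave between 173 and 476 TPM.

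Isoform choice is set during transcription and RNA processing, by the promoter used, by splicing factors such as SR proteins and hnRNPs that favour or block exons, and by the site of cleavage and polyadenylation. Some isoforms carry a premature stop codon and are degraded by nonsense-mediated decay, a surveillance pathway of translated mRNA, and others keep an intron and are mostly held in the nucleus. A change of isoform can therefore alter a protein, or lower its output, while the total RNA of the gene stays the same.

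Exon differences behind 4 of the genes described below are shown here because they show what a shift in share exchanges. All are reference sequence of GRCh38 (exons of GENCODE 44), read 5′ to 3′ on the strand of the gene. In SAT1, the transcript SAT1-208 holds an exon of 110 bases at chrX:23784294-23784403 (plus strand) that SAT1-204, the leading transcript, lacks. The exon is entered in the coding region and soon reaches a stop codon, TAG. Capitals mark the extra exon up to that stop in the first line and the next exon in the second.
SAT1-208: actggactccggaagGTTACAGTCTCTAG
SAT1-204: actggactccggaagGACACAGCATTGTTG
In COPA, the transcript COPA-202 has 27 more coding bases than COPA-201 at the start of an exon, at chr1:160305572-160305598 (minus strand). Capitals mark this stretch in the first line and the bases after the junction in the second.
COPA-202: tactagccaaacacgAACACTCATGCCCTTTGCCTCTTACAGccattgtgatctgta
COPA-201: tactagccaaacacgCCATTGTGATCTGTA
In ELP2, the transcript ELP2-202 skips an exon of 78 bases at chr18:36138795-36138872 (plus strand), which ELP2-203 includes. The skipped exon is in capitals in the first line.
ELP2-203: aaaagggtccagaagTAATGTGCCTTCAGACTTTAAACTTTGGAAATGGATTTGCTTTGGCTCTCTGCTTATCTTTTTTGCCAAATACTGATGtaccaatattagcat
ELP2-202: aaaagggtccagaagTACCAATATTAGCAT
In QKI (chromosome 6, plus strand), QKI-203, QKI-205 and QKI-201 share their first 934 coding bases and then end in 3 different ways, which gives proteins of 341, 319 and 325 residues, the forms known as QKI-5, QKI-6 and QKI-7. Capitals mark the coding end of each without its stop codon.
QKI-203: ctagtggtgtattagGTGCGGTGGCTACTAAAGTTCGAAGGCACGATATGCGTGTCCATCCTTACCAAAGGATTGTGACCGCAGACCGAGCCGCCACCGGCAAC
QKI-205: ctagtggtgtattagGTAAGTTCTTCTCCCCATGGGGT
QKI-201: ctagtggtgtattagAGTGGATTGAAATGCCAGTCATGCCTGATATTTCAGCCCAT

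The first comparison asked whether formaldehyde changed which isoforms the cells used. No transcript passed the main test. With edgeR's quasi-likelihood test on the counts, with the gene total as offset and the fraction as a term, 0 of 18090 transcripts (0%) had an adjusted p under 0.05, and the smallest adjusted p was 0.123. At an unadjusted p under 0.05 there were 1012 transcripts (5.59%), 562 with a higher (3.11%) and 450 with a lower share (2.49%) in FA. DESeq2 on the same counts called 104 transcripts (0.575%) in 92 genes, 56 higher (0.31%) and 48 lower (0.265%) in FA, and limma on the log2 odds of the share called 1 (0.00553%), higher in FA. All 104 DESeq2 calls had an unadjusted edgeR p under 0.05, and in 97 of them the groups were without overlap, which here means that both FA libraries lay on the same side of both CA libraries in Input and on that same side in IP. Over all transcripts tested, 1284 (7.1%) were without overlap in this sense, 728 higher (4.02%) and 556 lower (3.07%) in FA, with a median absolute difference of 4.57 percentage points. The limma call was MAP7-209, of a microtubule-binding protein, a transcript with another first exon than its partner. It was at 0% in both CA Input and both CA IP libraries, where a count of 0 allowed shares of up to 0.521% to 0.898%, and at 16.7% and 6.45% in FA Input and at 25.5% and 12.3% in FA IP. It was also called by diffSpliceDGE (adjusted p = 3.36e-04) and by limma with the RNA pool as a block (adjusted p = 0.0178, against 0.0175 without), but not by edgeR's main test (adjusted p = 0.617). MAP7-209 is outside the rule for named transcripts and was chosen after its values were seen.

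The wording below follows the main test, so that values are given for single transcripts and none is said to have risen or fallen.

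The mean shares of FA and CA lay close together for most transcripts. The median absolute difference between the mean of the 4 FA and that of the 4 CA libraries was 1.64 percentage points over the 18090 transcripts. Single replicates of one group differed by a median of 2.62 points in CA Input, 2.93 in FA Input, 3.42 in CA IP and 3.37 in FA IP. Means of 4 libraries vary less than single libraries, so these values do not compare with the 1.64. Single FA and CA libraries differed by a median of 2.46 to 2.97 points in Input and 2.99 to 3.54 in IP. A difference of 10 points or more between the FA and CA means occurred for 428 transcripts, 210 higher and 218 lower in FA, and 148 of these, in 127 genes, had no overlap in either fraction.

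**Figure D1:**
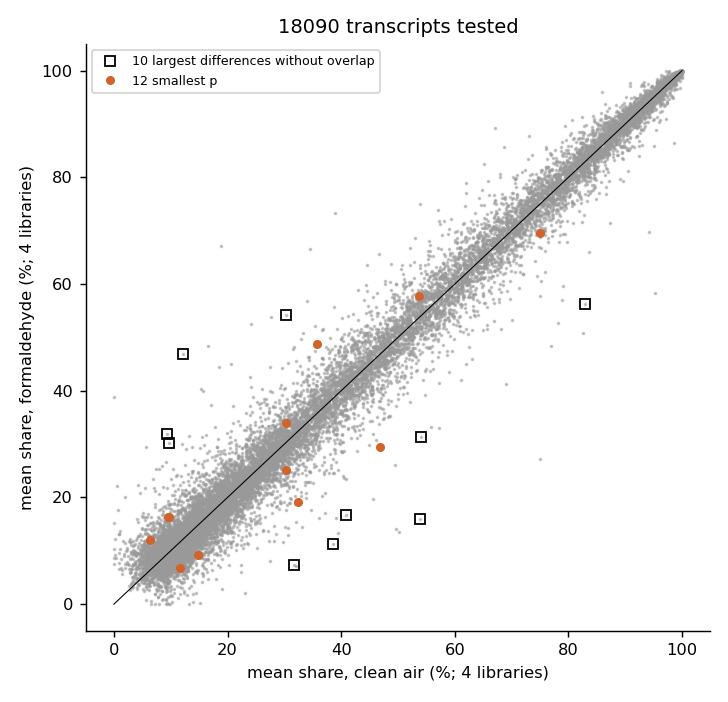
Mean share of each of the 18090 transcripts tested in the 4 clean air libraries (x axis, percent) against the 4 formaldehyde libraries (y axis, percent), with the line of equal share. The 12 transcripts with the smallest p (filled circles) differ by 3.51 to 17.3 points, and the 10 largest differences without overlap (open squares) by 20.5 to 38.0 points.

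The transcript with the smallest p was SAT1-208, the form of SAT1 with the extra exon and early stop shown above. SAT1 is the rate-limiting enzyme of polyamine breakdown, and this form is annotated as a target of nonsense-mediated decay. Its share was 6.36% and 6.79% in the CA Input libraries and 12.3% and 13.5% in the FA Input libraries. In the IP fraction it was 6.46% and 6.11% in CA and 10.2% and 11.9% in FA. All 4 FA libraries lay above all 4 CA libraries, and the 95% Wilson intervals, which cover counting error only, did not touch (the highest in CA ended at 7.33% and the lowest in FA began at 9.27%). The FA share was higher by a log2 ratio of 0.90 (SE 0.07; edgeR adjusted p = 0.123, DESeq2 adjusted p = 8.96e-23). The coding transcript SAT1-204 held 75.4% and 78.8% in CA Input and 71.8% and 74.8% in FA Input. The 2 intron-retaining transcripts of the gene that reached 2%, SAT1-202 and SAT1-206, were between 3.86% and 8.30% in every library. The gene itself was at 189 and 226 CPM (the expected count relative to the library total) in CA Input and at 172 and 209 CPM in FA Input.

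GPX1, the glutathione peroxidase that reduces hydrogen peroxide, had a second transcript among the 12 smallest p (ENST00000620890, without an entry in GENCODE 44). It held 29.7% and 30.1% in CA Input, 32.6% and 32.5% in FA Input, 30.1% and 31.5% in CA IP, and 34.9% and 35.4% in FA IP. The FA values were above the CA values in both fractions, by 3.51 points on average. The log2 ratio was 0.16 (SE 0.02; edgeR adjusted p = 0.505).

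QKI is an RNA-binding splicing and stability factor, whose QKI-5 form is nuclear and whose QKI-6 and QKI-7 forms are mainly cytoplasmic. QKI-205, the QKI-6 form, made up 13.2% and 11.0% of the gene in CA Input and 6.27% and 6.97% in FA Input, and 10.8% and 11.5% in CA IP and 7.29% and 6.83% in FA IP. It was lower in all FA libraries, by a log2 ratio of -0.77 (SE 0.09; edgeR adjusted p = 0.505, DESeq2 adjusted p = 6.45e-07). The QKI-5 form QKI-203 lay between 9.54% and 11.3% in CA and between 6.65% and 8.58% in FA, and the QKI-7 form QKI-201 between 5.52% and 9.22% in CA and between 4.94% and 8.94% in FA. The largest share of QKI was held by QKI-204, a transcript with the same number of coding bases as QKI-205 that is annotated for nonsense-mediated decay, with 41.7% to 47.5% in CA and 46.6% to 52.2% in FA.

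NXF1 is the receptor that exports mRNA from the nucleus. NXF1-211 differs from NXF1-201 by keeping 1 intron of 1801 bases (chr11:62798576-62800376, minus strand), which shortens the coding region from 1857 to 1068 bases. This intron-keeping form was the leading transcript in every library, with 53.5% and 54.1% in CA Input, 57.9% and 58.5% in FA Input, 54.0% and 53.5% in CA IP, and 57.7% and 57.0% in FA IP. NXF1-201 was between 36.9% and 39.4% in CA and between 29.9% and 33.3% in FA. The log2 ratio for NXF1-211 was small, 0.11 (SE 0.01; edgeR adjusted p = 0.505), and DESeq2 did not call it (adjusted p = 0.232).

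ELP2 is the WD40 subunit of Elongator, a complex that modifies tRNA. ELP2-202, which skips the exon of 78 bases, stood at 9.29% and 8.23% in CA Input, 14.8% and 15.4% in FA Input, 9.41% and 11.3% in CA IP, and 18.3% and 16.6% in FA IP. All FA libraries were above all CA libraries, with a log2 ratio of 0.77 (SE 0.09; edgeR adjusted p = 0.436, DESeq2 adjusted p = 1.03e-08). ELP2-203, which includes the exon, was at 28.9% to 30.0% in CA and at 26.3% to 26.8% in FA (edgeR adjusted p = 0.617). PUS7L, a pseudouridine synthase, had a log2 ratio of 0.74 (SE 0.11; edgeR adjusted p = 0.505, DESeq2 adjusted p = 4.49e-05) for PUS7L-207, which was at 8.75% to 11.7% in CA and at 13.1% to 18.4% in FA. PUS7L-207 and the leading PUS7L-201 code for the same bases and differ in their untranslated parts.

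COPA is the alpha subunit of the coatomer, the coat of vesicles that return from the Golgi to the endoplasmic reticulum. COPA-202, the form with the 27 added bases, was at 16.1% and 15.7% in CA Input and at 8.69% and 10.5% in FA Input. In IP it was at 13.6% and 14% in CA and at 7.99% and 9.47% in FA. All FA libraries were below all CA libraries, and the log2 ratio was -0.69 (SE 0.08; edgeR adjusted p = 0.436, DESeq2 adjusted p = 4.26e-12). COPA-201, the leading form, was between 47.5% and 54.6% in CA and between 53.7% and 66.6% in FA.

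FBLIM1 (migfilin) links filamin to cell adhesions. Its transcripts FBLIM1-202 and FBLIM1-203 contain the same 1119 coding bases and share 7 introns, so that they differ in their untranslated parts. FBLIM1-202 held 34.9% and 34.3% in CA Input, 49.3% and 46.4% in FA Input, 33.6% and 40.1% in CA IP, and 50.8% and 48.3% in FA IP. FBLIM1-203 held 40.3% to 53.4% in CA and 31.3% to 38.1% in FA, so that the leading transcript on average was FBLIM1-203 in CA and FBLIM1-202 in FA. The log2 ratio for FBLIM1-202 was 0.45 (SE 0.06; edgeR adjusted p = 0.505, DESeq2 adjusted p = 1.24e-06).

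SLF2 brings the SMC5/6 complex to sites of DNA damage. SLF2-201 was at 49.5% and 40.7% in CA Input, 26.6% and 27.8% in FA Input, 44.3% and 52.7% in CA IP, and 29.9% and 33.6% in FA IP. It had the largest difference among the 12, 17.3 points lower in FA, with a log2 ratio of -0.67 (SE 0.09; edgeR adjusted p = 0.505, DESeq2 adjusted p = 1.13e-06). A transcript of the same gene annotated for nonsense-mediated decay, SLF2-206, was at 19.4%, 17.8%, 19.3% and 0.00103% in CA and at 19.7% to 29.9% in FA. PPP4R3B, a regulatory subunit of protein phosphatase 4, had PPP4R3B-205 at 26.0% to 35.8% in CA and at 15.7% to 22.9% in FA, with a log2 ratio of -0.78 (SE 0.12; edgeR adjusted p = 0.505, DESeq2 adjusted p = 4.33e-06).

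TAF1D, a subunit of the RNA polymerase I factor SL1 and host of several snoRNAs in its introns, was represented by TAF1D-215, an intron-retaining transcript. It was at 29.0% and 27.7% in CA Input, 24.5% and 23.6% in FA Input, 33.6% and 30.7% in CA IP, and 26.4% and 26.2% in FA IP. All FA libraries were below all CA libraries (log2 ratio -0.26, SE 0.04; edgeR adjusted p = 0.505). PRRC1-201 completed the 12, with 71.9% to 78.4% in CA and 65.4% to 73.9% in FA, a range in which the groups overlapped unless the fractions were taken apart (log2 ratio -0.11, SE 0.02; edgeR adjusted p = 0.505).

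**Figure D2:**
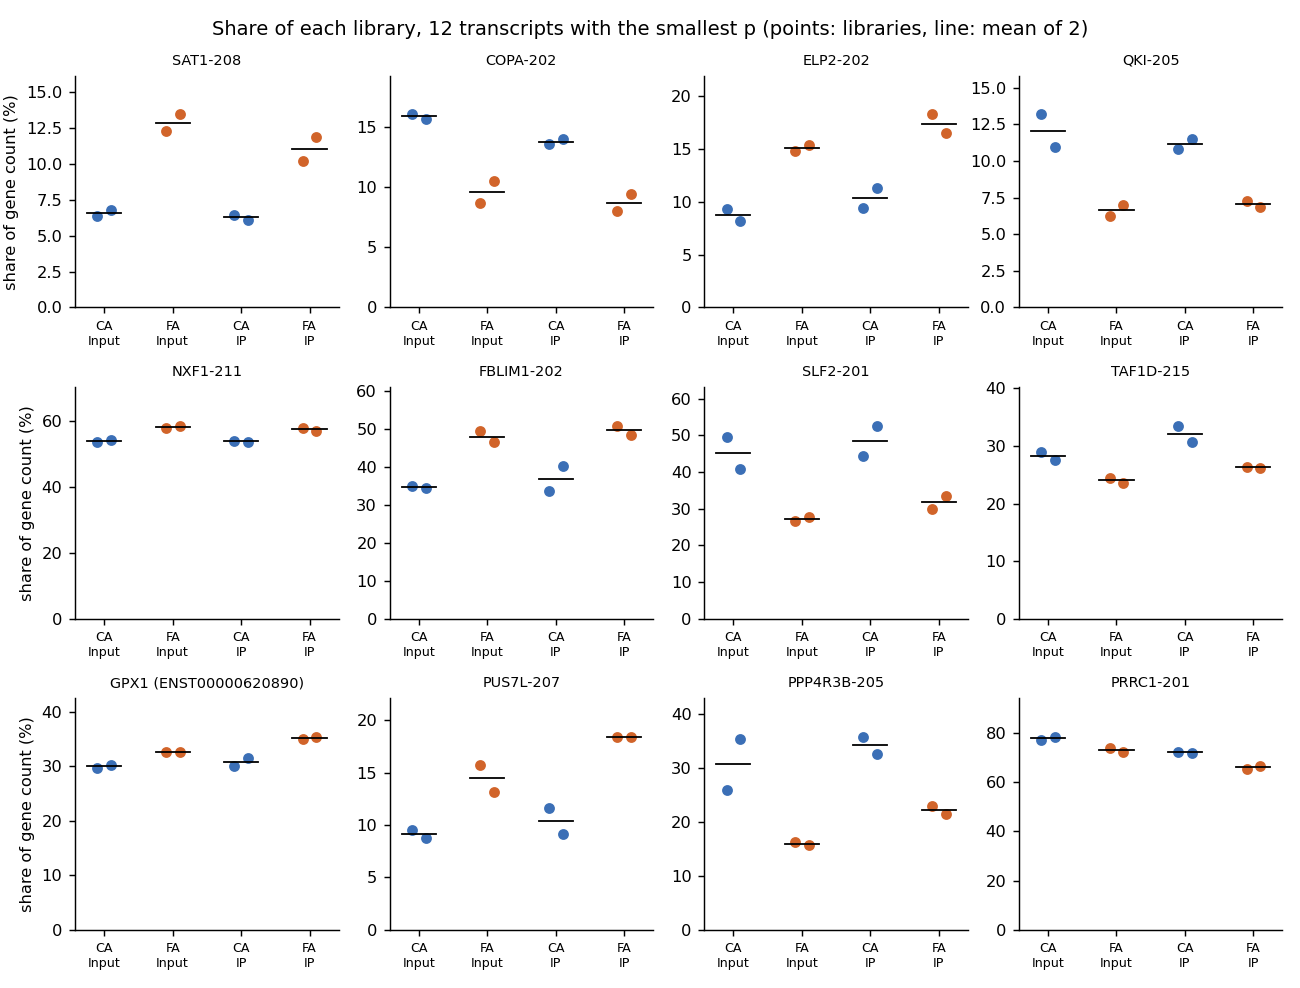
Share of the gene count (y axis, percent, from 0) in each of the 8 libraries for the 12 transcripts with the smallest p, by treatment and fraction (x axis); points are libraries and lines the mean of the 2 libraries of a group. In SAT1-208 the CA libraries lie between 6.11% and 6.79% and the FA libraries between 10.2% and 13.5%.

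The largest shifts were found in other transcripts and were measured less precisely. They were chosen for the absence of overlap, so that their directions are a description. MLLT10, a partner of the histone methyltransferase DOT1L, had the largest difference. MLLT10-201 was at 34.7% and 36.2% in CA Input and at 0% in both FA Input libraries, where a count of 0 allowed a share of up to 0.685% and 0.543%. In IP it was at 72.6% and 72.0% in CA but at 61.3% and 2.14% in FA. MLLT10-202, which has the same 3204 coding bases and shares 21 introns with it, was higher in FA, at 31.9% and 16.6% in CA Input, 61.0% and 63.8% in FA Input, 0% in both CA IP libraries, and 6.04% and 56.7% in FA IP. The Input and IP libraries of CA also stood far apart in both transcripts.

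MED12 is a subunit of the kinase module of Mediator. MED12-202 was at 49.8% and 50.1% in CA Input, 29.5% and 28.8% in FA Input, 65.7% and 50.3% in CA IP, and 40.3% and 26.6% in FA IP, with a log2 ratio of -0.79 (SE 0.15; edgeR adjusted p = 0.617, DESeq2 adjusted p = 5.13e-04). It has 6531 coding bases against 6411 in MED12-201. PTMS (parathymosin) had PTMS-201 at 28.3% to 51.0% in CA and 1.06% to 20.7% in FA, and the transcript ENST00000619580 at 16.2% to 38.4% in CA and 46.1% to 63.3% in FA. ESRP1, an epithelial splicing regulator, had ENST00000642581 at 46.7% and 43.0% in CA Input and 33.9% and 31.7% in FA Input, but at 25.0% and 48.7% in CA IP and 0% and 0.887% in FA IP.

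For FGF2-203, a transcript of fibroblast growth factor 2, the size of the difference rested on 1 library, with 14.5% in FA Input replicate 1 and 69.2% to 89.0% in the other 7. The remaining 3 of the 10 were NAPB-202 (14.2% to 49.8% in CA, 0% to 12.5% in FA), TST-204 (0.186% to 23.6% in CA, 23.0% to 39.5% in FA) and ZNF160-203 (6.64% to 14% in CA, 18.1% to 43.0% in FA). None of the 10 had an edgeR adjusted p below 0.617, and their standard errors ran from 0.15 to 1.64 on the log2 scale. Their genes had between 252 and 2399 counts per library.

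The distance between 2 libraries summarized all isoforms at once. It is the mean over genes of the share that would have to be moved between isoforms to turn one library into the other. Over 8041 genes, FA and CA libraries of the same fraction were 6.83 to 9.03 points apart (8 pairs, median 7.76), and the 2 replicates of a group were 6.80 to 8.64 points apart (4 pairs, median 8.17). IP and Input libraries of the same treatment were 7.51 to 9.06 points apart (8 pairs, median 8.50). The range of FA against CA thus covered about that of the replicates. The pairs share libraries, and no test was made.

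**Figure D3:**
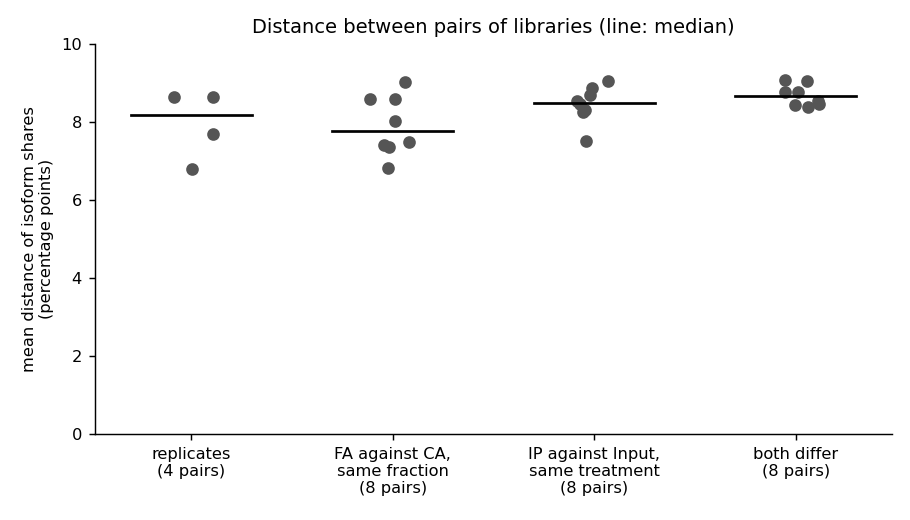
Mean distance of the isoform shares (y axis, percentage points, from 0) for the 28 pairs of libraries by kind of pair (x axis); points are pairs and lines medians. Pairs of FA and CA libraries (6.83 to 9.03) cover about the same range as replicates (6.80 to 8.64).

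The leading isoform, the one with the largest share, was compared in the same way. Between the mean of the 4 FA and that of the 4 CA libraries it differed in 296 of 8041 genes, while it differed between single replicates of one group in 434 to 611 genes. Single FA and CA libraries differed in 479 to 500 genes in Input and in 563 to 599 in IP. In 18 of the 296 genes both leading transcripts had FA and CA libraries without overlap in either fraction, in opposite directions. Over all 8041 genes, 212 held a transcript that was higher and another that was lower in FA without overlap. The 296 genes were selected by the difference between FA and CA, so the 18 are a description and were not tested against that background. The 3 of the 18 named next are signalling genes and were chosen after their values were seen. ERN1, the IRE1 sensor of unfolded protein in the endoplasmic reticulum, had ERN1-201 at a mean of 54.7% in CA and 39.2% in FA. TLK2, a kinase active in chromatin assembly, had TLK2-202 at 34.5% in CA and 22.9% in FA, and BCR had BCR-202 at 53.4% in CA and 48.7% in FA.

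Gene lists were examined for the regulators and targets of splicing and for the processes the exposure bears on. None held a transcript with an edgeR adjusted p under 0.05. The share of transcripts without overlap, 7.1% over all tested, ran from 4.58% to 10.1% over the lists, and the share with an unadjusted p under 0.05, 5.59% over all tested, from 2.29% to 10.1%. Both were lowest for DNA repair and highest for histone-modifying enzymes.

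Among the SR proteins and other splicing activators, 5 of 69 transcripts in 22 genes were without overlap, 2 higher and 3 lower in FA. The examples with the smallest p are kinases that phosphorylate SR proteins. CLK3-202 was at 6.84% to 8.00% in CA and at 9.40% to 12.7% in FA (edgeR adjusted p = 0.619). CLK2-207, a transcript without a defined coding region, was at 15.3% to 18% in CA and at 11.0% to 14.1% in FA (edgeR adjusted p = 0.807). Of the hnRNPs and other splicing regulators, 9 of 127 transcripts were without overlap, 2 higher and 7 lower. Beside QKI-205, HNRNPR-210 was at 13.2% and 13.7% in CA Input and at 10.4% and 11.0% in FA Input.

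Transcripts of the surveillance machinery gave 4 without overlap among 76, 3 higher and 1 lower. XRN1-202, a form of the cytoplasmic 5′ to 3′ exonuclease, was at 28.3% to 32.8% in CA and at 35.8% to 38.6% in FA (edgeR adjusted p = 0.619). UPF3A-201, a form of a nonsense-mediated decay factor, was at 13.1% to 17.2% in CA and at 15.3% to 26.9% in FA (edgeR adjusted p = 0.807), and its groups overlapped in Input.

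In the list of actin cytoskeleton and adhesion genes, 5 of 54 transcripts were without overlap, 4 higher and 1 lower in FA. Ezrin, which ties the cortical actin to the membrane, accounted for both of the smallest p. EZR-201 was at 31.9% to 35.6% in CA and at 27.2% to 29.8% in FA, while EZR-202 was at 64.2% to 67.9% in CA and at 70.1% to 72.6% in FA (edgeR adjusted p = 0.617 and 0.619). Both code for the same 1758 bases and share 12 introns. Of the p53 response and apoptosis genes, 3 of 51 transcripts were without overlap. CDKN1A-201, the main form of the cell cycle inhibitor p21, was at 88.1% to 92.5% in CA and at 83.7% to 86.5% in FA (edgeR adjusted p = 0.619), and the intron-retaining BAX-206 of the apoptosis effector BAX was at 9.63% to 12.4% in CA and at 7.01% to 9.50% in FA.

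Histone-modifying enzymes had 16 of 158 transcripts without overlap, 9 higher and 7 lower in FA. Their median absolute difference was 2.37 points, against 1.64 over all transcripts. This median was also above 1.64 for SWI/SNF subunits (2.15), DNA repair (2.01) and p53 response and apoptosis (1.72). In the other lists it was between 0.990 and 1.44 points. Both of the smallest p among the histone-modifying enzymes belonged to ELP2, described above, which the study lists under chromatin modifying enzymes. The SWI/SNF subunits had 5 of 54 without overlap. SMARCC1-202 was at 22.9% and 24.5% in CA Input and at 20.9% and 21.1% in FA Input, and ARID1B-218 was at 20.9% to 30.1% in CA and at 17.7% to 21.5% in FA. DNA repair genes had 6 of 131 without overlap, with FANCD2-202 at 12% to 17.3% in CA and at 9.86% to 14.6% in FA and the main FANCD2 transcript (ENST00000383807) at 74.0% to 79.4% in CA and 77.6% to 83.1% in FA. Formaldehyde clearance and antioxidant genes had 7 of 83 without overlap, 4 higher and 3 lower. Beside GPX1, FTH1-212 of the ferritin heavy chain was at 61.0% to 64.0% in CA and at 63.2% to 65.2% in FA (edgeR adjusted p = 0.735).

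**Figure D4:**
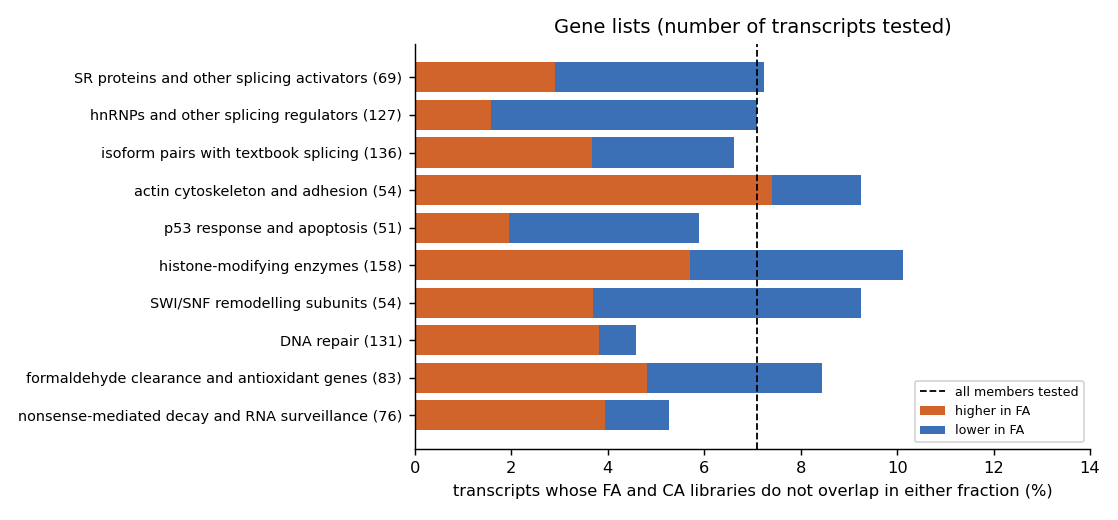
Percent of the transcripts tested in each gene list (y axis, with the number tested) whose FA and CA libraries did not overlap in either fraction (x axis, percent), split into those higher and lower in FA; the dashed line marks 7.1%, the value over all 18090 transcripts. The lists range from 4.58% (DNA repair) to 10.1% (histone-modifying enzymes).

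Of the genes with well-studied splicing, 9 of 136 transcripts were without overlap, 5 higher and 4 lower in FA, and the 2 smallest p were those of EXOC7-201 (46.4% to 51.4% in CA, 43.4% to 46.3% in FA) and MACF1-229 (12.1% to 13.0% in CA, 10.9% to 11.8% in FA). PKM-202, the main transcript of pyruvate kinase, was at 89.5% to 90.3% in CA and at 89.9% to 90.9% in FA. MCL1-202, of the survival factor MCL1, was at 91.0% to 95.1% in CA and at 91.8% to 95.7% in FA. BCL2L1-201 was at 54.7% and 55.4% in CA Input and at 56.8% and 57.0% in FA Input, and at 59.6% to 64.8% in the IP libraries. The main form of the adhesion receptor CD44, CD44-201, was at 46.8% to 58.8% in CA and at 46.3% to 55.3% in FA, and CD44-206 at 16.5% to 25.2% and 14.5% to 23.3%.

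TPM1-206 of the actin-binding protein tropomyosin was at 51.9% to 57.9% in CA and at 52.5% to 57.0% in FA, TPM1-208 at 12.9% to 16.9% and 12.7% to 16.9%. RAC1-201, of the small GTPase RAC1, was at 76.0% to 82.4% in CA and at 74.4% to 80.5% in FA, and RAC1-202 at 8.04% to 13.4% and 10.7% to 12.3%. LMNA-205 of the nuclear lamin A/C gene was at 27.4% to 32.3% in CA and at 26.9% to 29.7% in FA. The splicing factor SRSF3 had SRSF3-202 at 33.7% to 43.0% in CA and at 38.9% to 46.1% in FA, and SRSF3-208 at 22.9% to 29.4% and 22.8% to 28.3%. The standard errors of these log2 ratios were between 0.0043 and 0.16, the smallest for PKM-202, whose gene had 42632 counts or more per library.

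Transcripts that keep an intron were then counted as a class, a description with no test. Of the 1119 transcripts annotated as retained introns, 27 were higher and 71 lower in FA without overlap (8.76% in all), against 604 higher and 411 lower among 14542 protein-coding transcripts (6.98%). At an unadjusted p under 0.05 there were 21 higher and 52 lower retained introns. Their median difference was -0.50 points, and that of protein-coding transcripts 0.15 points. Of 1164 transcripts annotated for nonsense-mediated decay, 39 were higher and 29 lower without overlap. Within a gene the shares add to 100%, so these counts are not independent.

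The summed counts of the class were compared by an exact permutation test over libraries. Retained introns took 2.99% and 2.78% of the counts of all 8514 genes in CA Input and 2.78% and 2.59% in FA Input, and 3.34% and 3.12% in CA IP and 3.10% and 2.84% in FA IP. The FA mean was lower by 0.23 points, and the groups overlapped in Input (two-sided exact permutation p = 0.111 over 36 reassignments within fraction, 0.333 adjusted over 6 classes). The smallest p that reassigning libraries within fractions can give is 0.0556, so that no class could pass 0.05. This treats the Input and the IP library of a pool as separate. With the 4 RNA pools kept whole there are 6 reassignments, the smallest p is 0.333, and retained introns stood at that p. Within protein-coding genes, each given the same weight, retained introns made up 5.08% and 4.92% in CA Input, 4.91% and 4.52% in FA Input, 4.89% and 4.69% in CA IP, and 4.62% and 4.35% in FA IP, a view added after the values were seen. All FA libraries were then below the CA libraries of their fraction (exact permutation p = 0.0556, 0.333 adjusted over 6 classes, and 0.333 with pools kept whole). In the other added view, the summed counts of protein-coding genes, they made up 3.98% and 3.81% in CA Input and 3.84% and 3.47% in FA Input, which overlapped, and 3.99% and 3.83% in CA IP and 3.73% and 3.48% in FA IP (exact permutation p = 0.111). The class of processed transcripts and lncRNA had 2.35% to 2.63% in CA and 2.05% to 2.35% in FA over all genes (exact permutation p = 0.0556, 0.333 adjusted, and 0.333 with pools kept whole), and an exact p of 0.167 within protein-coding genes.

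**Figure D5:**
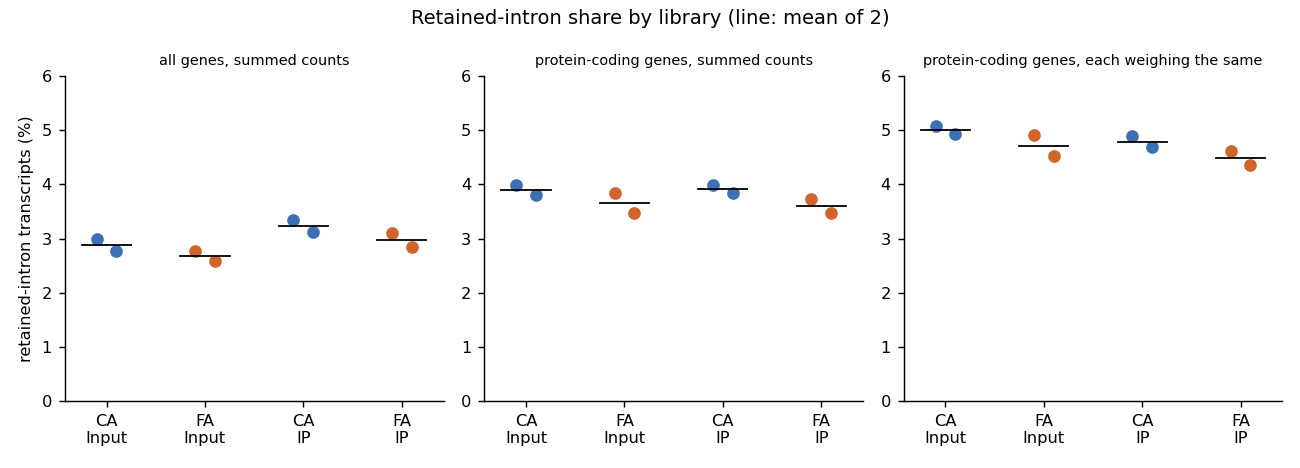
Retained-intron transcripts as a percentage (y axis, from 0) in each library by treatment and fraction (x axis), over the summed counts of all genes, over those of protein-coding genes, and as the mean share over protein-coding genes; points are libraries, lines the mean of 2. In the third panel the FA libraries (4.35% to 4.91%) lie below the CA libraries (4.69% to 5.08%) of the same fraction.

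The study named single transcripts of chromatin and DNA damage genes as oxidized or lowered after exposure, and 32 of them were looked up here. The list was chosen on these libraries and is not independent evidence of a direction. Their 29 genes all passed the count minimum, but 21 of the transcripts were under 10% of their gene in every library and 4 more reached 10% in 1 library only. The remaining 7 were tested. None had an unadjusted p under 0.05, none was without overlap in the same direction in both fractions, and 3 had a lower mean share in FA. The study's own measures were the ratio of IP to Input abundance and the abundance in Input, not shares. The test here averages FA against CA over both fractions, so that moves in 1 fraction only, or in opposite directions, are diluted or cancel. These counts are therefore no check of the study's calls.

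EHMT2-204, of a histone H3 lysine methyltransferase, was at 14.9% and 14.6% in CA Input and at 0.00168% and 1.30% in FA Input, but at 3.41% and 17.5% in CA IP and 9.93% and 10.5% in FA IP. GATAD2A-201, of a NuRD subunit, was at 8.42% to 13.9% in all Input libraries, at 0.930% and 0% in CA IP and at 22.2% and 11.7% in FA IP. GADD45A-205, of a stress-induced growth arrest gene, was at 6.06% to 12.7% in Input and at 0% to 3.68% in IP. ARID1A-205 ranged from 0% to 20.3% over the 8 libraries, SIRT1-202 from 0% to 17.5%, and the PAXIP1 transcript ENST00000397192 from 0% to 27.1%.

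The last of them, the KMT2C transcript ENST00000355193, behaved differently in the fractions. KMT2C is a histone H3 lysine methyltransferase. This transcript was at 54.8% and 56.5% in CA Input and at 3.35% and 8.57% in FA Input, while in IP it was at 58.5% and 53.5% in CA and at 62.0% and 59.1% in FA. Its place in FA Input was taken by KMT2C-201 and ENST00000558084, each at 44.5% and 41.5% there and at 14.9% to 18.8% in the other 6 libraries. These transcripts had the same length and the same expected count as each other in every library, and ENST00000355193 is only 4 bases shorter (16858 against 16862), so that reads can be divided between them in more than one way. KMT2C as a gene was at 49.3 to 58.6 CPM in all 8 libraries.

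Whether the FA against CA change differed between Input and IP was tested for every transcript. With edgeR 0 of 18090 (0%) had an adjusted p under 0.05 for this difference and 600 (3.32%) had an unadjusted p under 0.05, 311 with a higher (1.72%) and 289 with a lower (1.6%) ratio in IP. DESeq2 called 91 and limma 7. For the KMT2C transcript ENST00000355193 the unadjusted edgeR p was 8.43e-04, which did not pass adjustment. The fractions themselves differed in 114 transcripts (0.63%) of 94 genes by edgeR, 52 with a higher (0.287%) and 62 with a lower share (0.343%) in IP, and in 933 by DESeq2 and 34 by limma. Among the calls with the largest terms, EOGT-210 was at 9.09% to 13.0% in the 4 Input libraries and at 0% in the 4 IP libraries, where a count of 0 allowed shares of up to 0.397% to 0.586%. PTK2B-205 was at 12.8% to 14.4% in Input and at 0% in IP. In the other direction PLIN3-202 was at 2.92% to 5.22% in Input and 10.0% to 17.6% in IP, and TMEM258-207 at 4.60% to 6.22% and 12% to 17.5%.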

How the data were processed

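The deposited tables hold expected counts per transcript for 8 libraries. According to the study's methods and the submitters' processing notes, the authors trimmed 75-base reads of small RNA kit libraries with cutadapt, aligned them to GRCh38 with STAR 2.6.0a and estimated the expected counts and effective lengths (another deposited value) with RSEM 1.2.25 on Ensembl 94 transcripts. RSEM divides reads that fit several isoforms by a model, so the share of near-identical isoforms can move between libraries without a change in reads: 26 of the transcripts tested had the same expected counts as another transcript of their gene. Deposited DESeq2 tables of the authors' own comparisons were not used. Replicates were numbered in sample order within a group, and the study describes them as biological duplicates. P-values measure the spread between these libraries.

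Shares were computed from expected counts as deposited. Counts were rounded to whole numbers and tested with edgeR 4.0.16 (quasi-likelihood, log gene total as offset, terms for fraction and treatment, Benjamini-Hochberg over 18090 transcripts, limit 0.05), so that the coefficient is a log2 ratio of shares. DESeq2 1.42.0 and limma 3.58.1 were alternatives, with a pseudocount of 0.5 on the log2 odds. The functions were tested on simulated counts of independent libraries, with a smaller spread between libraries than was fitted here (common dispersion 0.0915). That run does not give the power of the tests in these data. Names, types and exons are from GENCODE 44, in which 18124 of 18563 transcripts have an entry. Some structures described above have another length there than the counted transcript, so they may not be the exact form counted. These are FBLIM1-202 (3695 bases as counted, 3314 in GENCODE 44), MLLT10-201, EZR-202, PUS7L-201, NXF1-201, MED12-201 and MED12-202. The named transcripts are those with the 12 smallest p, the 10 largest differences of mean share without overlap, 2 per gene list with the smallest p, the main forms of 8 genes with known splicing (CD44, PKM, TPM1, BCL2L1, MCL1, LMNA, RAC1 and SRSF3), tested transcripts named by the study, and the 5 largest called fraction terms, of which 1 is not reported here. Members and lists were chosen with earlier results of these data known. Binomial intervals (Wilson, 95%) and limits of a 0 (3 counts) cover counting error only. CPM is relative to the sum of expected counts of the library, and TPM was computed from count over effective length.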

Additional observations from a re-analysis of the deposited data

Results flagged for a closer look

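The KMT2C transcript ENST00000355193 was singled out because every FA library moved one way against CA in Input and the other way in IP. Its share in FA minus CA was -49.7 points in Input (FA 3.35% and 8.57%, CA 54.8% and 56.5%) and 4.56 points in IP (FA 62.0% and 59.1%, CA 58.5% and 53.5%). The difference between the fractions had an unadjusted edgeR p of 8.43e-04 and did not pass adjustment over all transcripts. Without FA Input replicate 2 the log2 ratio in IP minus that in Input was 4.16. In that fit the lone FA Input library is assumed to vary like the other groups, and its largest terms can rest on that library. CNOT6L-208, for example, was at 2.83% in FA Input replicate 1 and at 78.6% to 89.6% elsewhere. The near-identical KMT2C-201 and ENST00000558084 took up the share in FA Input, and the part of the division of reads between them in this result was not tested.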

How the results depend on the processing

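For FA against CA, the count of 0 transcripts held with edgeR in Input alone, in IP alone, at gene minimums of 50 and 1000, at share minimums of 5% and 20%, per effective length, and without each library in turn. DESeq2 called 104 transcripts in 92 genes, diffSpliceDGE 2 in 2 genes, limma 1 in 1 gene, and limma with the RNA pool as a correlated block 1 in 1 gene. With the number in the library names as replicate block edgeR called 1 transcript in 1 gene. It was HNRNPDL-204 (log2 ratio -0.65, edgeR adjusted p = 0.0499 in that fit), which is outside the rule for named transcripts. Its share was 14.5% and 9.04% in CA Input, 9.28% and 5.74% in FA Input, 11.9% and 6.96% in CA IP, and 7.55% and 4.41% in FA IP. Within a treatment, the number in the library names links the Input and the IP library of a pool. Their deviations from their group means correlated at 0.0406 in CA and -0.0147 in FA. The study lists dated formaldehyde exposures with clean air run in parallel. It does not state whether FA and CA libraries of equal number come from the same date, so such a pairing is possible. The main test leaves it out. Equally numbered FA and CA libraries correlated at 0.0192 to 0.0741. The difference of the FA effect between fractions was called in 91 transcripts by DESeq2, in 7 by limma, and in 0 to 3 with 1 library left out (3 without FA Input replicate 2, among them the KMT2C transcript ENST00000355193, 1 without CA IP replicate 1 and 1 without CA IP replicate 2). IP against Input gave 933 calls by DESeq2, 34 by limma, 39 with the pool block and 20 to 127 with 1 library left out, against 114 with all; leaving out any library other than FA IP replicate 1 gave 62 or fewer. Why the tools differ was not tested.

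The distance between libraries (mean of FA against CA, IP against Input, both different, and replicates) was 9.82, 10.3, 10.5 and 9.87 points at a gene minimum of 50, 5.05, 5.71, 5.92 and 5.12 at 1000, and 12.1, 12.9, 13.2 and 12.2 with counts divided by effective length. The leading transcript then differed in 509, 72 and 470 genes. Transcripts not matched to GENCODE 44 differed by 1.21 points per effective length. In 2 views chosen after seeing the data, processed transcripts and lncRNA differed by -0.0312 points within protein-coding genes and by -0.0145 points with each such gene weighted equally.

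Direction turned for some named transcripts, of which no FA against CA value passed edgeR's test. For the PAXIP1 transcript ENST00000397192, limma with or without the pool block gave a difference of log2 odds, FA minus CA, of -1.07. With edgeR, the log2 ratio of its share was -0.57 with the replicate block, -8.92 in Input and -8.17 to 4.42 with 1 library left out. In Input alone the log2 ratio was -0.89 for SIRT1-202, -0.16 for GADD45A-205, 0.0030 for RAC1-201, -0.027 for TPM1-206 and 0.041 for TPM1-208. In IP alone it was 0.031 for CD44-201, 0.11 for the KMT2C transcript ENST00000355193, 0.013 for TMEM258-207, 0.012 for MCL1-202 and -0.0052 for BCL2L1-201. Per effective length it was 0.046 for CD44-201, 1.8e-05 for SRSF3-208, 0.0050 for MCL1-202 and -0.0049 for LMNA-202. With 1 library left out it was -0.093 to 0.0060 for CD44-201, -0.022 to 0.040 for TPM1-206, -0.11 to 0.035 for TPM1-208, -0.015 to 0.0087 for MCL1-202, -0.11 to 0.034 for PTK2B-205, -0.040 to 0.0055 for RAC1-201, -0.0079 to 0.063 for LMNA-202 and -0.86 to 4.05 for SIRT1-202. Of the named transcripts, 17 passed with DESeq2 and not with edgeR.

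Each treatment is represented by 2 RNA pools, and the median difference between single replicates, 2.62 to 3.42 points, is over all transcripts. Some transcripts were measured more closely.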
